A study of Rattus norvegicus with 30 samples.

Results

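A set of 10 genes of the immediate early response were followed in brain tissue of 30 rat pups: Fos (ENSRNOG00000008015), Fosb (ENSRNOG00000046667), Jun (ENSRNOG00000026293), Junb (ENSRNOG00000042838), Egr1 (ENSRNOG00000019422), Egr2 (ENSRNOG00000000640), Npas4 (ENSRNOG00000020009), Nr4a1 (ENSRNOG00000007607), Arc (ENSRNOG00000043465) and Dusp1 (ENSRNOG00000003977). They were chosen by a list of Ensembl identifiers, each given with its symbol, and all 10 are among the 32586 gene rows of the count matrix. The matrix carries identifiers only, so the symbols rest on that list. The pups belonged to GAERS, an inbred rat line with genetic absence epilepsy, or to NEC, its non-epileptic control line. In each line some pups had been exposed to valproate (VPA), which is given against seizures and blocks histone deacetylases, and others had not. There were 8 unexposed NEC pups (NEC control), 7 exposed NEC pups (NEC VPA), 8 unexposed GAERS pups (GAERS control) and 7 exposed GAERS pups (GAERS VPA). The labels used here name no dose, timing or route of exposure and no age, sex, litter or brain region. All 10 genes passed the filter on low counts, which kept 15885 genes for testing.

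Immediate early genes are switched on within minutes of a stimulus, without new protein synthesis. In neurons, calcium entry through synaptic receptors and voltage-gated channels activates kinases that act on CREB and on SRF with its partners, factors already bound near the start sites of these genes. The products are mostly transcription factors, which then drive later genes, and a few effectors that act at synapses or damp the signal. For this reason their RNA is widely used as a marker of recent neuronal activity, including that of seizures, and their resting level in brain is low and varies with handling and state.

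Start-site sequences are given for 4 of the genes, with letter matches to sites of CREB and SRF and to the TATA box marked. The reference promoter table (RefSeq, build GRCr8, another assembly than the one used for the counts) holds 7 of the 10 genes and not Fos, Jun or Arc. The 250 bases upstream of the start are given for Junb and Dusp1, the pair whose levels ran most closely together between pups, for Nr4a1, with the most CRE cores of the 7, and for Egr2, which holds a CRE core beside a CArG box. Capitals mark the CRE core TGACG (bound by CREB, read on either strand, including within the full CRE), the CArG box (bound by SRF) and the TATA box TATAAA.
Junb, chr19:40080876-40081125, plus strand: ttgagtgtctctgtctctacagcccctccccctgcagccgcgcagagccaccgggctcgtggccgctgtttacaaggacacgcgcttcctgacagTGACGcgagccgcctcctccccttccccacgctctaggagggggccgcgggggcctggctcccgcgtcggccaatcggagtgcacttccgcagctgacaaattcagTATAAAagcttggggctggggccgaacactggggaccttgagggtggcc
Dusp1, chr10:17184603-17184852, plus strand: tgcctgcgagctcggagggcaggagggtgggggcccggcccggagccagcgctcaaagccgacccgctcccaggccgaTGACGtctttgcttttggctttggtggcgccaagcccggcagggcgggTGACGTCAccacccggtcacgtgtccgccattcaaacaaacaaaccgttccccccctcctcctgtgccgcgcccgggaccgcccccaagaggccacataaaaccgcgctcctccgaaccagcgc
Nr4a1, chr7:134259888-134260137, plus strand: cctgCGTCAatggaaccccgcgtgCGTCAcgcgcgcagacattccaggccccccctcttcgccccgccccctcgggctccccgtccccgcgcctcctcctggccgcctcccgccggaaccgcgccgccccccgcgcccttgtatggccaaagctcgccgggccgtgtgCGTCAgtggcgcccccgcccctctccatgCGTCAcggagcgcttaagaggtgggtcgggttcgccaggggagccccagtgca
Egr2, chr20:21054442-21054691, minus strand: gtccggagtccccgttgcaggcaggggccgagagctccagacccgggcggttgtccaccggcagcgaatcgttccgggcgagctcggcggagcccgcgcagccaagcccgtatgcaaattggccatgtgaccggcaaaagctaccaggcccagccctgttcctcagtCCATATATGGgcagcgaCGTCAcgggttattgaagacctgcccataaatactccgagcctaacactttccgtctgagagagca

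The CRE core TGACG was found in 5 of the 7 windows of 300 bases (250 before and 50 after the start), those of Junb, Egr1, Egr2, Nr4a1 and Dusp1, against 21.2% of the 33469 windows in the table. Nr4a1 had 4 cores and Dusp1 had 3, of which 2 overlap as the full palindromic CRE TGACGTCA. That full element was found in 1 of the 7 and in 1.83% of all windows. The CArG box was found in the windows of Egr1 (2 boxes) and Egr2 (1 box) and in 1.64% of all windows. In both genes it lies beside a CRE core. TATAAA was found in the windows of Fosb and Junb and in 14.2% of all. The EGR site GCGTGGGCG and the AP-1 site TGANTCA were in none of the 7 and in 0.544% and 7.33% of all windows. Both strands were searched, and a match describes letters only, not binding.

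Levels are given as CPM (counts relative to library size, with library sizes adjusted by TMM). They are not corrected for gene length, so they are compared between pups and not between genes. Library totals ran from 26963266 to 56568656 counts. Raw counts ran from 2489 to 5327 per pup for Jun, from 71 to 211 for Fos and from 1 to 39 for Npas4, the gene with the fewest counts. The mean log2 CPM over the 10 genes overlapped between groups, with a median and range of 2.37 (2.06 to 2.65) in NEC control, 2.19 (2.03 to 2.52) in NEC VPA, 2.33 (1.83 to 2.39) in GAERS control and 2.36 (2.01 to 2.43) in GAERS VPA. Libraries that stood apart from their group numbered 4, by a median correlation with its members of 0.976 in NEC control 3, 0.985 in NEC VPA 7, 0.982 in GAERS control 1 and 0.984 in GAERS VPA 4. For these genes GAERS control 1 was the lowest of its group for 7 of the 10 and NEC control 3 for 4, while NEC VPA 7 was the highest of its group for 5 and GAERS VPA 4 for 4. Among the other libraries, GAERS VPA 2 was the lowest for 6 and NEC control 5, NEC VPA 1 and NEC VPA 6 for 4 each. Replicate numbers only name pups, and pups may share litters, so p-values measure the spread between these samples. In bulk tissue, fewer cells of a type and less RNA per cell cannot be told apart.

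**Figure D1:**
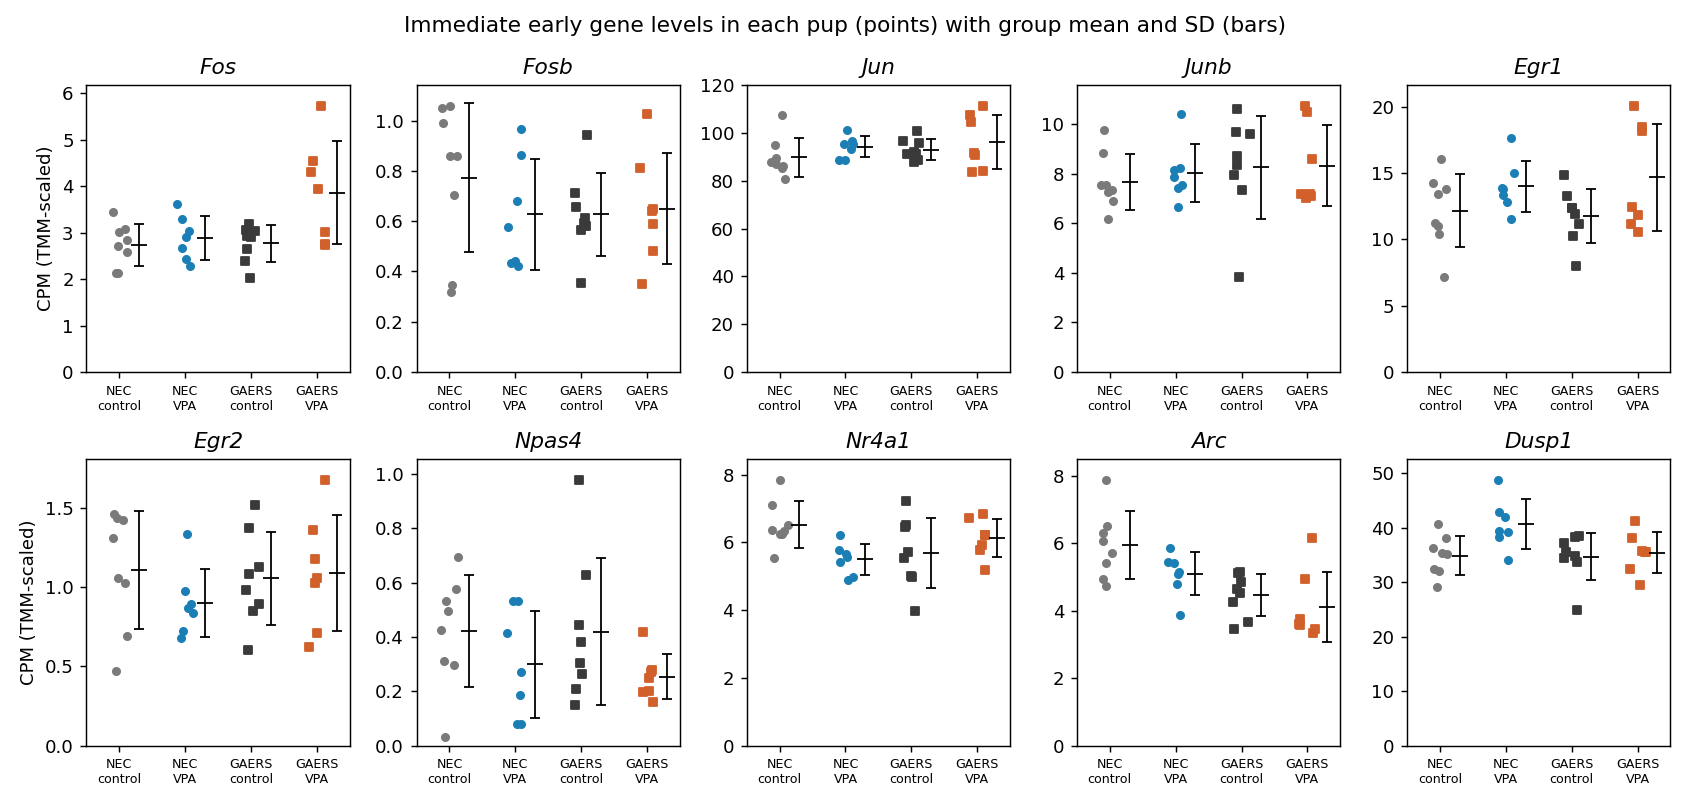
Level of each immediate early gene in every pup, in CPM (y axis from 0), by group (x axis); points are pups, and the bar beside them is the group mean with 1 SD. Pups of the 4 groups overlap for every gene; Fos reaches 5.72 CPM in GAERS VPA against at most 3.63 CPM in the other groups, and Arc is lowest on average in the GAERS groups.

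The first question was whether VPA exposure changed these genes. Averaged over both strains, 1 of the 10 passed the test, Fos, which rose, against 29.1% of all 15885 genes called in either direction with 13.9% called higher and 15.2% lower. The share of members called was below that of all genes, a difference that was not tested and that 10 genes are too few to establish. The sign of the difference was positive for 5 and negative for 5, with a median log2 fold change of -0.02 against -0.00 for all genes. Their standard errors were wider than usual, with a median of 0.10 on the log2 scale against 0.06 for all genes. A call here means a quasi-likelihood p from edgeR that stays under 0.05 after Benjamini-Hochberg adjustment over all tested genes.

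Among the AP-1 genes, whose products pair to form the AP-1 transcription factor, Fos carried the only call. In NEC it was at 2.13 CPM in the lowest, 2.77 in the median and 3.44 in the highest control, and at 2.28, 2.90 and 3.63 CPM in the exposed pups. In GAERS it was at 2.02, 2.92 and 3.19 CPM in controls and at 2.73, 3.93 and 5.72 CPM in exposed pups. The groups overlap in both strains, but 4 of 7 exposed GAERS pups lay above all 8 GAERS controls, against 1 of 7 in NEC. Over both strains the difference was 0.28 ± 0.10 on the log2 scale (SE; 1.21-fold, edgeR adjusted p = 0.0381). The call was made in 18 of 30 fits that left out 1 library and was lost without any of NEC control 5 or 6, NEC VPA 2, 3 or 5, GAERS control 1, 2 or 7, or GAERS VPA 3, 4, 5 or 6. The log2 fold change in those 30 fits ran from 0.22, without GAERS VPA 3, to 0.32, and the adjusted p reached 0.0824. The call was also lost with no filter on low counts (edgeR adjusted p = 0.0522).

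Within strains Fos did not pass the test. In GAERS alone the difference was 0.48 ± 0.14 on the log2 scale (SE; 1.39-fold, edgeR adjusted p = 0.0540), and in NEC 0.08 ± 0.15 (SE, edgeR adjusted p = 0.725). The difference between these 2 responses was 0.40 ± 0.20 (SE) on the log2 scale and did not pass the interaction test (edgeR adjusted p = 0.607). Fos in GAERS passed in 4 of 11 other analyses, with adjusted p from 0.0181 with surrogate variables (edgeR) to 0.04997 with a filter of 1 CPM (edgeR), DESeq2 among them (0.0267), and missed in the other 7, the highest being 0.0980 with the GAERS groups alone (edgeR). It also passed without NEC control 3 or GAERS VPA 1, 2 or 7.

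The other AP-1 genes showed no difference that passed. Fosb, a close relative of Fos, was at 0.773 ± 0.296 CPM (SD, n = 8) in NEC control and 0.627 ± 0.221 CPM (SD, n = 7) in NEC VPA, and at 0.628 ± 0.165 CPM (SD, n = 8) and 0.651 ± 0.220 CPM (SD, n = 7) in GAERS. It was measured from only 11 to 59 counts per pup, and the 95% interval of its log2 fold change over both strains ran from -0.51 to 0.23. Jun, the common partner of Fos proteins, had the narrowest interval of the 10, from -0.03 to 0.14, around a log2 fold change of 0.06. Junb, a relative of Jun that often restrains it, had a log2 fold change of 0.04 with an interval from -0.17 to 0.25. The 3 exposed GAERS pups with the highest Jun, GAERS VPA 3, 4 and 5 at 105 to 111 CPM, lay above every GAERS control, the highest of which was at 101 CPM. GAERS VPA 1 and 2, at 83.7 and 84.3 CPM, lay below every GAERS control, the lowest of which was at 88.0 CPM.

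The zinc-finger factors Egr1 and Egr2 did not pass either. Egr1, a factor induced by synaptic stimulation and used as an activity marker, was at 7.17, 12.4 and 16.03 CPM in the lowest, median and highest NEC control and at 11.5, 13.8 and 17.6 CPM in exposed NEC pups. In GAERS it was at 7.999, 12.1 and 14.9 CPM in controls and at 10.6, 12.5 and 20.0 CPM in exposed pups. The exposed GAERS pups split into 3 at 18.2 to 20.0 CPM, above all controls, and 4 at 10.6 to 12.5 CPM, within the control range. The 3 high pups were again GAERS VPA 3, 4 and 5. Over both strains the log2 fold change of Egr1 was 0.26 ± 0.11 (SE; edgeR unadjusted p = 0.0213, adjusted p = 0.0668). It passed with DESeq2 (adjusted p = 0.0499) and with surrogate variables (edgeR adjusted p = 0.00256), and missed in the other 8. Without the 4 libraries of low correlation its log2 fold change was 0.11 (edgeR adjusted p = 0.361). It also passed without NEC control 1, GAERS control 6 or GAERS VPA 1, 2 or 6.

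Egr2, which in the nervous system is best known for directing myelination in Schwann cells and is also induced by activity, had a log2 fold change of -0.13 over both strains, with a 95% interval from -0.46 to 0.19. It was measured from 15 to 82 counts per pup, and each exposed group lay largely within the range of its controls.

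Npas4, a transcription factor made almost only in neurons and induced by calcium entry, had the most negative difference of the 10 and the least precise. Its level was 0.421 ± 0.205 CPM (SD, n = 8) among unexposed NEC pups and 0.299 ± 0.198 CPM (SD, n = 7) in NEC VPA, and at 0.419 ± 0.270 CPM (SD, n = 8) in GAERS control and 0.254 ± 0.0838 CPM (SD, n = 7) in GAERS VPA. No exposed pup lay below the lowest control of its strain. Pooled over strains its log2 difference was -0.65 ± 0.30 (SE; edgeR unadjusted p = 0.0365, adjusted p = 0.0990). It passed without NEC control 8, the pup with a single Npas4 count (log2 fold change -0.73, edgeR adjusted p = 0.0409). It missed in the 9 other analyses that could be run, with a log2 fold change of -0.29 (adjusted p = 0.618) with limma-voom quality weights.

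Nr4a1, a nuclear receptor that binds no known hormone and is regulated through its own induction, had a negative difference in NEC and a positive one in GAERS, as did Fosb and Egr2. In NEC it was at 5.54, 6.35 and 7.85 CPM in the lowest, median and highest control and at 4.88, 5.57 and 6.22 CPM in exposed pups, and 3 of the 7 in the latter group were lower than any control. In GAERS it was at 3.99, 5.62 and 7.23 CPM in controls and at 5.18, 6.22 and 6.86 CPM in exposed pups, which all lay within the control range. The log2 fold change was -0.25 ± 0.10 (SE, edgeR adjusted p = 0.0556) in NEC and 0.11 ± 0.10 (SE, edgeR adjusted p = 0.597) in GAERS. The difference between them, 0.36 ± 0.14 (SE), was the only one of the 10 under 0.05 before adjustment, and did not pass (edgeR adjusted p = 0.607). In NEC the difference passed in 6 of 11 other analyses, among them without the 4 libraries of low correlation (edgeR adjusted p = 0.0335) and with DESeq2 (adjusted p = 0.0406), and missed in 5, the highest being 0.0939 with no filter (edgeR). It also passed without NEC control 8, NEC VPA 5, or GAERS control 1 or 6.

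Arc, whose product acts at synapses in the removal of AMPA receptors, differed by -0.17 ± 0.09 on the log2 scale (SE, edgeR adjusted p = 0.151) over both strains. The differences were -0.23 in NEC and -0.12 in GAERS. Without GAERS VPA 6, at 6.14 CPM the highest exposed GAERS pup, the log2 fold change over both strains was -0.23 and passed (edgeR adjusted p = 0.0279). This was the only pass, in 1 of 30 fits leaving out 1 library, where the edgeR adjusted p reached 0.252. Arc passed in 0 of the 10 other analyses of that comparison.

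Dusp1, a phosphatase that switches off the MAP kinases which induce the other genes, was at 29.1, 35.2 and 40.7 CPM in the lowest, median and highest NEC control and at 34.1, 39.4 and 48.7 CPM in exposed NEC pups. Of the 7 exposed NEC pups, 3 lay above all controls. The difference in NEC was 0.22 ± 0.08 on the log2 scale (SE; 1.16-fold, edgeR adjusted p = 0.0502), just outside the threshold, and it passed in 6 of 11 other analyses, DESeq2 among them (adjusted p = 0.0407), and without any of 9 single libraries. The log2 fold change was 0.10 with surrogate variables (edgeR adjusted p = 0.154). It was 0.14 without the 4 libraries of low correlation (edgeR adjusted p = 0.0802), 2 of which, NEC control 3 and NEC VPA 7, are the lowest NEC control and the highest exposed NEC pup. In GAERS, Dusp1 was at 34.7 ± 4.34 CPM (SD, n = 8) in controls and 35.4 ± 3.76 CPM (SD, n = 7) in exposed pups, a log2 fold change of 0.03 with a 95% interval from -0.14 to 0.20.

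Counted within strains, edgeR called 0 of the 10 for VPA in NEC, where 24.6% of all genes were called (11.1% higher and 13.6% lower), and 0 of the 10 in GAERS, where 3.82% were (1.88% higher and 1.94% lower). At an unadjusted p under 0.05 there were 2 in NEC (Nr4a1 and Dusp1) and 2 in GAERS (Fos and Egr1). Of all 15885 genes, 5928 were under that edgeR threshold in NEC and 2846 in GAERS, so neither count sets the members apart. DESeq2 called 2 in NEC and 1 in GAERS, and limma-voom with quality weights 2 and 0. The shares of all genes that these other tools called are not given here, so their counts of members cannot be set against them. The interaction called 0 of the 10, and 0% of all genes, by edgeR, with 1278 genes at an unadjusted p under 0.05. DESeq2 and limma-voom with quality weights called 1 and 140 of all genes and also 0 of the 10, and Nr4a1 alone had an unadjusted edgeR p under 0.05.

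**Figure D2:**
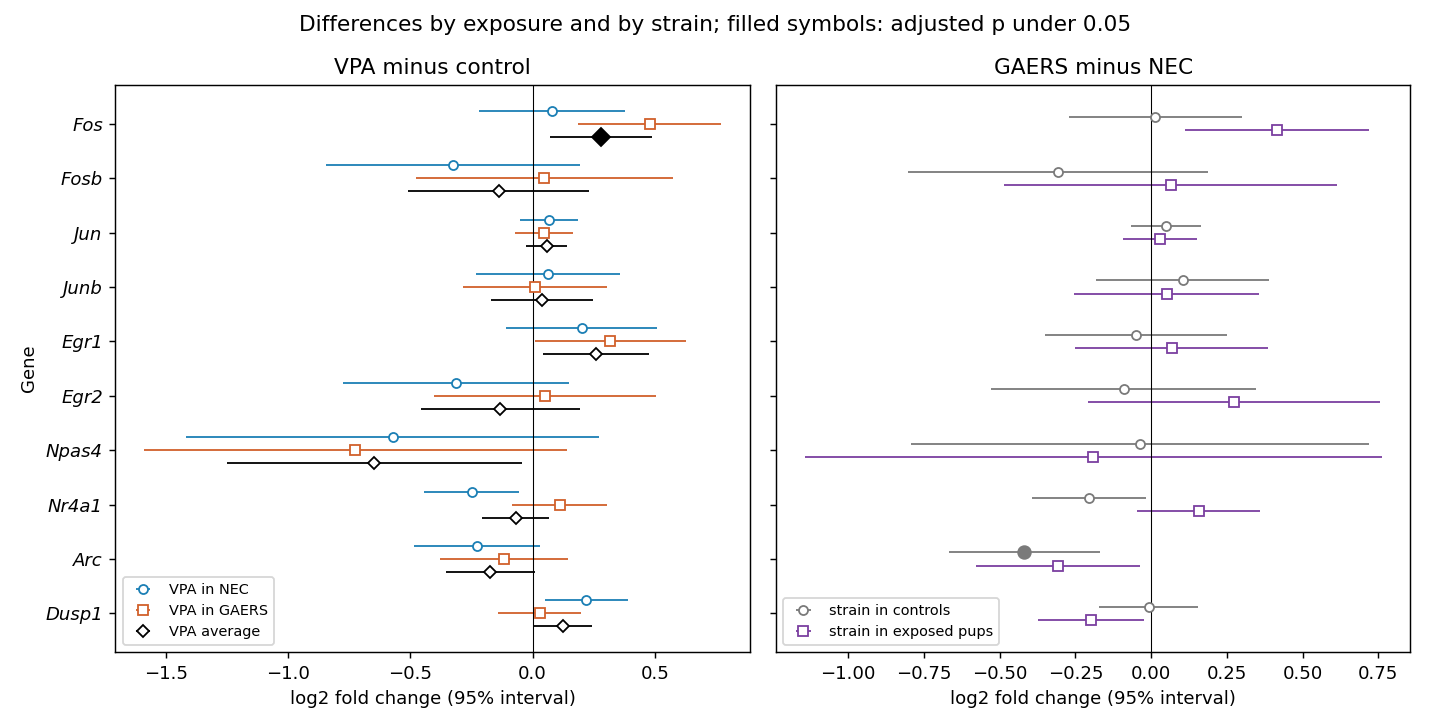
Log2 fold change (x axis) of each gene (y axis) for VPA minus control (left) and GAERS minus NEC (right), with 95% intervals from the edgeR fit; filled symbols passed an adjusted p under 0.05. Fos over both strains (0.28) and Arc between strains in controls (-0.42) are the filled symbols, and the intervals of Npas4, Fosb and Egr2 are the widest.

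The second question was whether the strains differed. In unexposed pups 1 of the 10 passed, Arc, which was lower in GAERS, against 8.66% of all genes called, with 4.04% higher and 4.62% lower. Arc was at 4.72 CPM in the lowest, 5.88 in the median and 7.87 in the highest NEC control, and at 3.45, 4.58 and 5.15 CPM in GAERS controls. The ranges overlap, with 5 of 8 GAERS controls below all NEC controls. The difference was -0.42 ± 0.12 on the log2 scale (SE; 1.34-fold lower, edgeR adjusted p = 0.0251). It passed in 11 of 11 other analyses and was lost without NEC control 7 (log2 fold change -0.35, adjusted p = 0.0760), GAERS control 2 (adjusted p = 0.0519), GAERS control 3 (adjusted p = 0.0658) or GAERS control 7 (adjusted p = 0.0559), all by edgeR.

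In exposed pups edgeR called 0 of the 10 between strains, where 12.3% of all genes were called (5.98% higher and 6.3% lower). At an unadjusted p under 0.05 there were 3, Fos, Arc and Dusp1. Of all 15885 genes, 4403 were under that edgeR threshold, so this count does not set the members apart. DESeq2 called 1, Fos, and limma-voom with quality weights 0, with their shares of all genes not given here. Arc was at 3.86, 5.16 and 5.86 CPM in the lowest, median and highest exposed NEC pup and at 3.33, 3.60 and 6.14 CPM in exposed GAERS pups, of which 5 of 7 lay below all exposed NEC pups and 1 above. Its log2 fold change was -0.31 ± 0.13 (SE, edgeR adjusted p = 0.123), in the same direction as in controls, and -0.42 without GAERS VPA 6 (edgeR adjusted p = 0.0227). That was the only pass, in 1 of 30 fits leaving out 1 library, where the edgeR adjusted p reached 0.269. Arc passed in 0 of the 11 other analyses of exposed pups. The exposed libraries are separate from those of the unexposed comparison.

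Fos differed by 0.41 ± 0.15 on the log2 scale (SE, edgeR adjusted p = 0.0639) between exposed GAERS and exposed NEC pups and 0.01 ± 0.14 between controls. Dusp1 had -0.20 ± 0.09 (SE, edgeR adjusted p = 0.125) and -0.01 ± 0.08. The change of a strain difference with exposure is the same interaction given above, which neither gene passed. The order of the group means differed from gene to gene: GAERS VPA was the highest for Fos, Jun, Junb and Egr1, NEC control for Fosb, Egr2, Npas4, Nr4a1 and Arc, and NEC VPA for Dusp1. Apart from the calls for Fos and Arc, no difference between groups in these orders passed the test.

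The members were then compared between pups of the same group, where neither strain nor exposure varies. Group means were subtracted from log2 CPM, and each of the 45 pairs of genes was correlated over 30 pups. All values of a pup come from 1 library and share its depth and composition. The median r was 0.18, and 39 of the 45 were positive. The pairs share genes, so they are not separate observations. Pairs of other genes were not examined, so these values do not show that members vary together more than other genes do. By permutation of pups within groups, 7 pairs had a Pearson r with an adjusted p under 0.05, 3 had such a Spearman rho, and the same 3 passed both.

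The closest pair was Junb and Dusp1, a transcription factor and a phosphatase. Their deviations had r = 0.86 and rho = 0.79 (permutation p = 1e-05 for each, the smallest that 100000 resamples can give; adjusted p = 0.00045 over the 45 pairs). Within single groups r was 0.79 in NEC control, 0.89 in NEC VPA, 0.96 in GAERS control and 0.78 in GAERS VPA. Without the 2 pups with the most extreme Junb, GAERS control 1 and 5, r was 0.79, and without the 4 libraries of low correlation it was 0.65. GAERS control 1 was at 3.84 CPM for Junb and 24.9 CPM for Dusp1, against 7.33 to 10.6 and 33.7 to 38.5 CPM in the other pups of its group.

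Egr1 and Dusp1 had r = 0.67 and rho = 0.55 (permutation adjusted p = 0.00202 and 0.0466). This relation rested more on the outlying libraries: r was 0.54 without NEC control 3 and GAERS control 1 and 0.34 without all 4. Fosb and Junb had r = 0.58 and rho = 0.56 (permutation adjusted p = 0.0030 and 0.0328), 0.62 without NEC control 3 and 5, and 0.47 without the 4 libraries. Junb and Egr1, at r = 0.50, were at -0.01 without the 4 libraries. Fos and Egr1 moved the other way, from 0.48 (permutation adjusted p = 0.114) to 0.77, and Fos and Jun from 0.59 to 0.73. By group, Fos and Egr1 were at -0.06 in NEC control, 0.30 in NEC VPA, 0.81 in GAERS control and 0.75 in GAERS VPA. Fos and Jun were at 0.70, 0.10, 0.09 and 0.79 in the same order. Without GAERS VPA 2 and 3, the pups with the most extreme Fos, r was 0.37 for Fos and Egr1 and 0.48 for Fos and Jun. GAERS VPA 3, 4 and 5 lay above every GAERS control for Fos, Jun and Egr1. No other member did so in all 3 pups, and Junb and Dusp1 did so only in GAERS VPA 4 of the 3. Egr2 was at its lowest levels of the group in GAERS VPA 4 and 5 (0.619 and 0.708 CPM). Arc and Npas4, the genes of the list most tied to neurons, had no pair that passed, and their own r was 0.22.

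**Figure D3:**
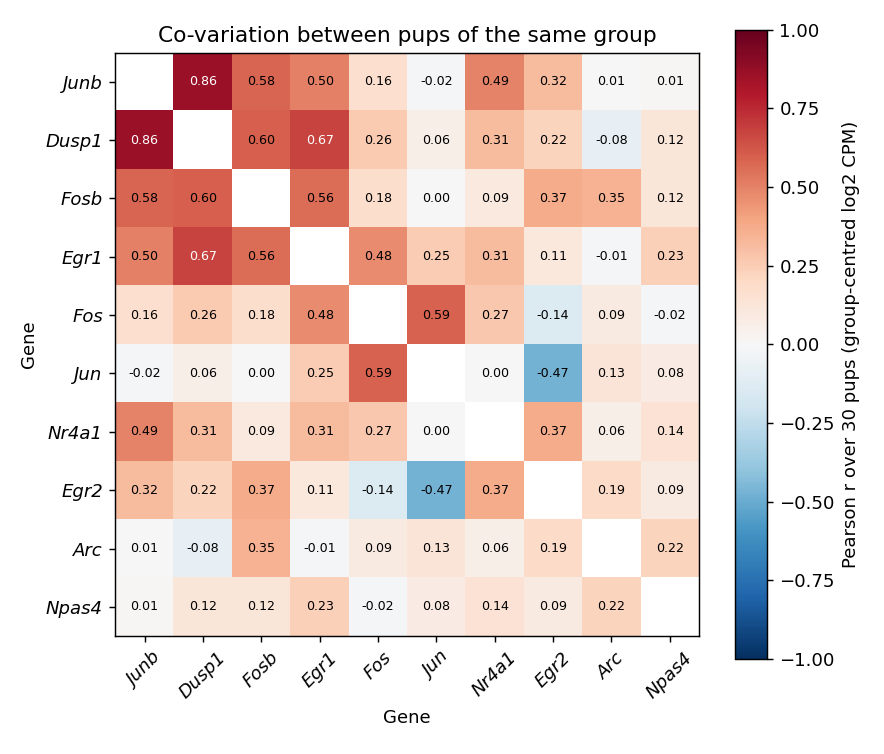
Pearson r between each pair of genes over 30 pups after subtraction of group means from log2 CPM; both axes list the genes, and colour and number give r. Junb, Dusp1, Fosb and Egr1 form a block with r from 0.50 to 0.86. Fos has r = 0.59 with Jun and 0.48 with Egr1, pairs that did not pass both tests. Arc and Npas4 stay between -0.08 and 0.35 with every other gene.

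**Figure D4:**
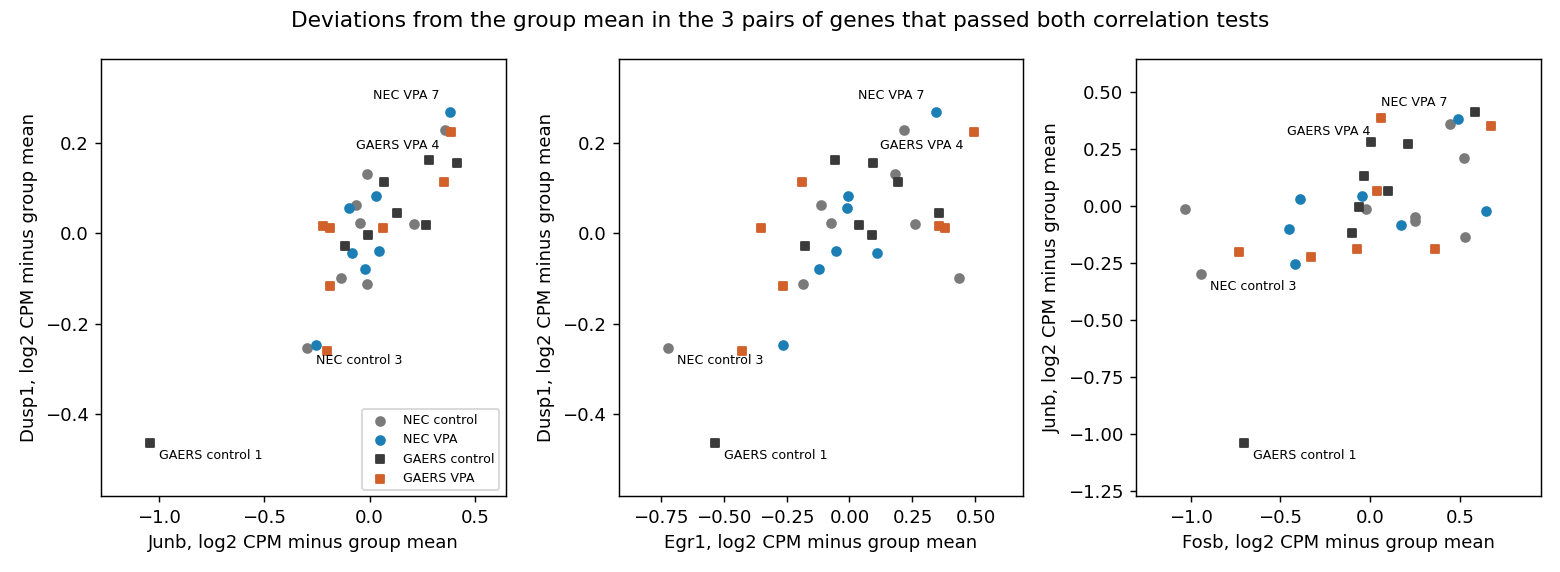
Deviation from the group mean in log2 CPM of 1 gene (x axis) against another (y axis) for the 3 pairs that passed both tests; each point is a pup, coloured by group, and the 4 libraries with low correlation to their group are labelled. Junb and Dusp1 follow a line (r = 0.86), with GAERS control 1 far below the rest.

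The spread between pups was set beside that of genes of like abundance (mean log2 CPM within 0.5). Npas4 and Egr1 were among the more variable, with a within-group SD of 0.79 and 0.31 on the log2 scale, above 95.1% and 90.1% of genes of their abundance. Junb lay above 84.8% and Nr4a1 above 33.4%. The remaining 6 lay between 55.7% and 76.9%.

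A search of 11941 other genes (mean log2 CPM not under 2) ranked them by likeness, and those whose deviations ran closest to the mean of the 10 standardised members over 30 libraries were ENSRNOG00000011984 (r = 0.81, rho = 0.72) and ENSRNOG00000001302 (r = 0.78, rho = 0.69). Those running most opposite were ENSRNOG00000031544 (r = -0.76, rho = -0.63) and ENSRNOG00000038068 (r = -0.75, rho = -0.61). They were searched for over all genes, so these values are descriptions. Of the 4, ENSRNOG00000038068 passed for VPA over both strains, where it fell by 0.32 on the log2 scale (edgeR adjusted p = 0.000982). In that comparison 29.1% of all 15885 genes were called, with 15.2% called lower, so 1 of 4 is near the share of all genes. The files do not pair these identifiers with symbols.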

How the data were processed

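Total RNA of brain tissue was sequenced from 30 pups, with a stranded total RNA kit named per the labels. The authors deposited whole-number counts, not normalised, with 1 row per Ensembl gene. Per the submitters' processing notes, FastQC, STAR 2.5 and rat build Rnor_6.0 (rn6) were used. For how reads were assigned to genes (tool, annotation, strand) the sources used here give nothing, so overlapping or near-identical genes may share reads.

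Genes were kept by filterByExpr (minimum count 10, minimum total count 15). Libraries were scaled by TMM, and 1 edgeR 4.0.16 quasi-likelihood fit (R 4.3.3, robust, 4 group means, 30 libraries) gave all comparisons. Benjamini-Hochberg adjustment covered 15885 genes. Standard errors were derived from the F statistic. Log2 CPM used a prior count of 2. Correlations used 100000 permutations of pups within groups. Replicate libraries differed by more than counting noise (lowest chi-square per degree of freedom 5.25 over 98 pairs). The fit was tested on simulated data. All 10 members are named, and genes of like pattern by rank of r, 2 in each direction. The members and lists were chosen with earlier results of these data known. Lists of other activity genes and of cell type markers, kept by symbol, were not used here because the reference table (GRCr8) pairs no Ensembl identifier with a symbol, so the tissue label was not checked against markers. Alternatives were other scalings (upper quartile, RLE), other filters (none, or 1 CPM in 7 libraries), other tools (limma 3.58.1 voom with quality weights, DESeq2 1.42.0), covariates for library number, depth and 5 surrogate variables (sva 3.50.0), the compared groups alone, leaving out each library, and leaving out 4 libraries of low correlation.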

Additional observations from a re-analysis of the deposited data

Results flagged for a closer look

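Of 40 sets of values (10 genes in 4 groups), 2 held a pup far from the rest of its group, where chance flags about 5% of sets, or 2. Dusp1 was at 24.9 CPM in GAERS control 1, against 33.7 CPM in the next lowest pup of its group. Junb was at 10.4 CPM in NEC VPA 7, against 8.22 CPM in the next highest. Both are libraries with a low correlation to their group, and both genes belong to the pair that ran together between pups. The flagged pups are part of that correlation, so the flags add nothing separate to it. The cause was not tested.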

How the results depend on the processing

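No paired analysis was possible because the replicate numbers were assigned by accession and tie no pup to another. Of the 60 differences (10 genes in 6 comparisons), 27 kept both their direction and their side of the threshold in every alternative run, and 20 changed sign in at least 1; none of those 20 passed the test as reported. For VPA over both strains the number of members called, 1, was 0 with no filter (Fos at adjusted p = 0.0522), 2 with DESeq2 (Fos and Egr1) and 3 with surrogate variables (Fos, Egr1 and Dusp1), and 0 to 2 leaving out 1 library. In NEC, where edgeR called 0, it was 1 with RLE, upper-quartile scaling, the filter of 1 CPM, library number, surrogate variables or without the 4 libraries, 2 with DESeq2, limma-voom or the compared groups alone, and 0 to 2 leaving out 1 library; the genes were Nr4a1 and Dusp1. In GAERS it was 1 (Fos) with upper-quartile scaling, the filter of 1 CPM or DESeq2, 2 with surrogate variables (Fos and Egr1), and 0 to 1 leaving out 1 library. Between controls it was 0 to 1, and between exposed pups 1 with DESeq2 (Fos) or without the 4 libraries (Dusp1) and 0 to 1, leaving out 1 library. For the interaction it was 0 in all. The shares of all genes called under these alternatives are not given here. Several alternatives test fewer genes or samples. Otherwise the cause was not tested.

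The sign changes were as follows, as log2 fold changes. For VPA over both strains, Junb was at -0.052 with limma-voom, -0.0048 with surrogate variables, -0.11 without the 4 libraries and -0.016 to 0.068 leaving out 1 library. For VPA in NEC, Junb was at -0.15 with surrogate variables, -0.044 without the 4 libraries and -0.0066 to 0.12 leaving out 1 library. For VPA in GAERS, Fosb was at -0.11 with limma-voom, -0.043 without the 4 libraries and -0.093 to 0.16 leaving out 1 library. Junb was at -0.13 with limma-voom, -0.012 with depth as a covariate, -0.17 without the 4 libraries and -0.10 to 0.072 leaving out 1 library. Egr2 was at -0.023 with limma-voom and -0.086 to 0.15 leaving out 1 library. Dusp1 was at -0.034 with limma-voom, -0.0042 with depth as a covariate, -0.066 without the 4 libraries and -0.027 to 0.067 leaving out 1 library. In the interaction, Jun was at -0.062 to 0.0088 leaving out 1 library. Junb was at 0.30 with surrogate variables and -0.16 to 0.018 leaving out 1 library. Npas4 was at 0.26 with surrogate variables and -0.34 to 0.15 leaving out 1 library. Arc was at -0.018 to 0.15 leaving out 1 library. Between controls, Fos was at -0.031 to 0.074 leaving out 1 library. Junb was at -0.027 with surrogate variables. Egr1 was at -0.12 to 0.016 leaving out 1 library. Npas4 was at 0.18 with limma-voom and -0.35 to 0.13 leaving out 1 library. Dusp1 was at 0.015 with upper-quartile scaling, 0.0017 with no filter, 0.0017 with the filter of 1 CPM, 0.023 with limma-voom, 0.0026 in the compared groups alone, 0.024 without the 4 libraries and -0.034 to 0.049 leaving out 1 library. Between exposed pups, Fosb was at -0.044 with limma-voom and -0.069 to 0.20 leaving out 1 library. Jun was at -0.0070 to 0.065 leaving out 1 library. Junb was at -0.020 to 0.12 leaving out 1 library. Egr1 was at -0.022 to 0.14 leaving out 1 library. Npas4 was at 0.11 with surrogate variables and -0.37 to 0.037 leaving out 1 library. The median r between members was 0.17 without the 4 libraries and 0.19 with upper-quartile scaling. Low counts of Npas4, Fosb and Egr2 limit what could be seen for them.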
